A study of Cynodon dactylon with 10 samples.

Results

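A set of 78 contigs, out of 28456 in leaves of bermudagrass (Cynodon dactylon), went up under heat and down under submergence. Drought moved them less on the scale of the choice. They were chosen by their own RPKM values, RPKM being reads per kilobase of contig, scaled to the size of the library. On log2(RPKM + 1) of group means as deposited, each had to be at least 1 above the control under heat and at least 1 below it under submergence. The drought change had to be under 1 in size and the control level under 500 RPKM. The salt libraries took no part in the choice. The heat, submergence and drought values below therefore describe the set and test nothing, and they support nothing beyond the rule itself.

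Bermudagrass is a warm-season perennial turf and forage grass. All plants were labelled wild type, were 3 weeks old as seedlings, and were sampled as leaf after 7 days of treatment. One group was the control. In the 4 stress groups, water was withheld (drought), 400 mM NaCl was given (salt), seedlings were kept under water (submergence), or the temperature was held at 42 °C (heat). Each of the 5 groups had 2 libraries, and the labels do not say whether they came from separate plants, so p-values cover no more than the spread from library to library, and that spread may be technical. The labels name no cultivar.

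As background, plants in lasting heat make chaperones and other proteins that keep proteins folded and membranes working, under the control of heat shock transcription factors. Plants under water lose gas exchange and much of their light, and their leaves turn to fermentation and to the saving of carbon. The contigs carry assembly identifiers and no gene names. No role can be given to any of them, no pathway list or marker of a leaf cell type could be matched, and the leaf label could not be checked against marker genes. An identifier is made of a component, a subcomponent and a sequence number. Contigs that differ in the last of these alone are called contigs of 1 subcomponent below. Such contigs may be forms, alleles or close copies of 1 gene, and reads can be divided among them, so the level of a single contig is then uncertain.

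Library totals ran from 751923 to 795078 RPKM. The number of reads behind them is not known. Judged by the spacing of low values, depth lay between 0.792 and 1.01 times that of control replicate 1, with heat replicate 2 the shallowest. All contigs together shifted without scaling. The median change over the 26884 contigs tested was 0.33 under submergence, 0.14 under heat, 0.06 under salt and 0.04 under drought on the log2 scale. After scaling it was 0.10 under submergence and 0.00 under the other stresses. The rule used unscaled values, and the fits below used scaled ones.

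The 78 contigs took 1.01% ± 0.0167 of all RPKM in heated leaves and 0.0759% ± 0.000515 in submerged ones (SD, n = 2 each). They took 0.330% ± 0.00406 in the control, 0.362% ± 0.00904 under drought and 0.290% ± 0.00233 under salt (SD, n = 2 each). Their summed level was 2596 and 2552 RPKM in the control libraries, 2831 and 2722 under drought, 2320 and 2280 under salt, 568 and 574 under submergence, and 7584 and 7780 under heat. As deposited, the groups did not overlap in this sum, which ran in the order heat, drought, control, salt, submergence. The scaling used for the fits below lowers drought by 0.08 against the control on the log2 scale. Drought and control libraries then overlap in the sum. The 5 members with the highest mean over all libraries made up 37.9% to 48.4% of this sum, depending on the library. The median member gave the same order of group means, with 35.9 and 36.4 RPKM under heat, 17.6 and 16.0 under drought, 13.3 and 13.6 in the control, 12.3 and 11.6 under salt, and 2.67 and 2.35 under submergence. Leaves are mixed tissue, so fewer cells of a type and less RNA per cell cannot be told apart in any of these levels.

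**Figure D1:**
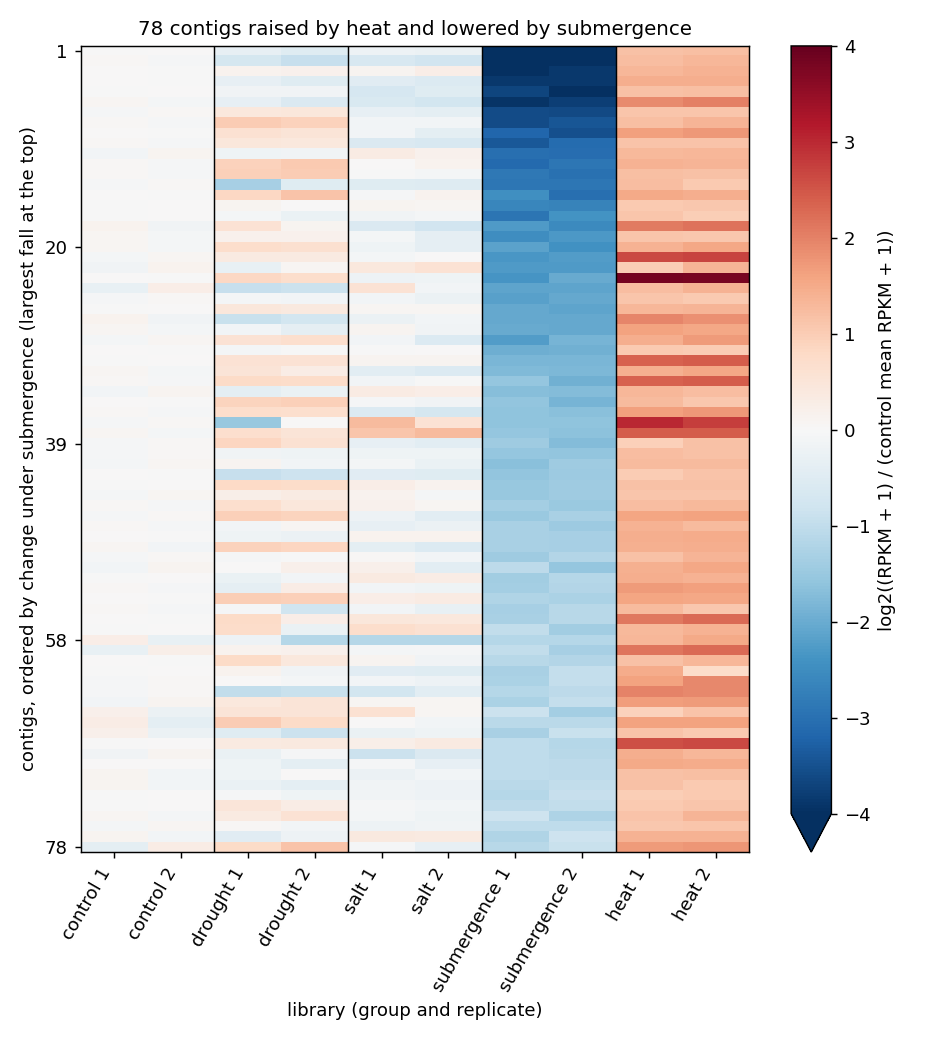
Each row is 1 of the 78 contigs and each column 1 library, coloured by log2((RPKM + 1) / (control mean RPKM + 1)), with rows ordered by the change under submergence. Submergence columns are blue and heat columns red in all rows by the choice of contigs, the drought and salt columns hold both colours, and the colours end at 4 on either side, which the mean fall of 2 contigs passed.

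Heat gave the highest mean of the 5 groups in all 78 contigs, and both heat libraries stood above every other library in all 78. Both submergence libraries stood below every other library in 77. The exception was also at 0 in both salt libraries and in 1 drought library. The second-highest mean was that of drought in 39 contigs, the control in 27 and salt in 12. All 78 passed the filter on low values and were called higher under heat and lower under submergence by limma at an adjusted p under 0.05. Over all contigs tested, 35.4% were called higher under heat and 33.8% lower under submergence. The rule used both contrasts, so these counts and the orders of libraries given above are not a result. The share of all contigs with such orders was not counted. With scaling, 51 of the 78 were called at least 2-fold higher under heat and 78 at least 2-fold lower under submergence. Over all 26884 contigs tested, 3267 and 4294 were. The members' counts again follow from the choice. Scaled values put 75 contigs through the rule, 52 of them among the 78.

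The fall was deeper than the rise in 43 of the 78. The rise under heat had a median of 1.35 on the rule's log2 scale and ran from 1.01 to 3.82, and 53 contigs lay under 1.5. As a plain ratio of means it ran from 2.04-fold to 14.7-fold, with a median of 2.84-fold. Under submergence the level left was a median of 23.5% of the control, from 48.1% down to a listed 0. A heat rise of at least 4-fold on the rule's scale was seen in 10 contigs and a submergence fall of that size in 29. At 8-fold these numbers were 1 and 12. Both changes reached 4-fold in 3 contigs.

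With 1 RPKM added, a contig of low control level can fall only a little on this scale. The control level ran from 1.23 to 328 RPKM with a median of 13.3. The 23 contigs under 5 RPKM in the control had a median submergence change of -1.16, the 45 at 5 to 50 RPKM one of -1.57, and the 10 at 50 to 500 RPKM one of -3.29. In plain percentages, counted contig by contig, the abundant class had a median of 9.12% of the control level, against 27.5% for the middle class and 16.2% for the low class. Of the 10 abundant contigs, 3 were of 1 subcomponent, that of comp55821_c0_seq1, and all 3 lay below their class median. Without those 3, the median of the other abundant contigs was 23.6%, above that of the low class. The order of the high and low classes therefore depends on that subcomponent. With 1 RPKM added, the rule also asks a larger fall in percent of low contigs, so these percentages do not rank the classes. The heat rise differed less between the classes, with medians of 1.41, 1.31 and 1.36 from the low to the high class. Submergence libraries listed 4 contigs at 0 in both replicates and 2 more in 1 replicate, and 16 contigs were under 0.5 RPKM in both. None of the 78 was at 0 in a heat or a control library.

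Of the contigs printed by identifier, 2 had the largest heat change of the set. comp49164_c1_seq1 stood at 22.7 and 22.5 RPKM in the control libraries, 40.7 and 37.1 under drought, 19.4 and 19.8 under salt, 3.65 and 4.81 under submergence, and 337.87 and 329.11 under heat. Its heat libraries were far above all others, and no group overlapped another. The heat mean was 14.7 times the control mean and 78.8 times the submergence mean. In the fit it was 3.59 above the control under heat on the log2 scale and 2.42 below it under submergence, each with an SE of 0.09. On the rule's scale it was the one member with a heat rise of over 8-fold, and no other contig of its subcomponent is in the table.

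comp56526_c1_seq2 was a low contig, with 1.97 and 2.18 RPKM in the control, 0.07 and 2.08 under drought, 6.47 and 3.57 under salt, and 24.0 and 19.8 under heat. It was listed at 0 in both submergence libraries. Its drought replicates disagreed and overlapped the control range, while both salt libraries were above both control libraries. The fitted heat change was 2.70 with an SE of 0.44, and the salt change of 0.88 had an adjusted p of 0.192 in limma. As a plain ratio of means its heat level was 10.5 times the control. Its subcomponent holds 7 contigs with 66.2 RPKM in all in the control, of which this contig carried 3.13%. The sum of the 7 was higher under submergence, at 130.8 RPKM, and under heat, at 158.6 RPKM. Another of the 7 was at 0 in the control and heat libraries and at 7.63 and 8.64 RPKM under submergence.

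The largest falls under submergence among the other members came in 2 subcomponents that hold 3 members each. comp60899_c0_seq1 read 27.4 and 27.5 RPKM in the control, 21.7 and 19.4 under drought, 23.6 and 23.0 under salt, 0.22 and 0.27 under submergence, and 63.3 and 64.2 under heat. Submerged leaves held 0.892% of the control level, and heated leaves 2.32 times that level. Drought and salt libraries both lay below the control libraries. The fitted submergence change was -4.67 and the heat change 0.95, each with an SE of 0.06.

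comp55821_c0_seq1 was the most abundant of these 4 in the control, with 258.83 and 246.12 RPKM there, 155.6 and 133.2 under drought, 162.43 and 148.6 under salt, 14.5 and 14.7 under submergence, and 599 and 631 under heat. Drought and salt values overlapped each other and lay below the control. Submergence left 5.77% of the control level and heat gave 2.44 times it. Its fitted changes were -4.28 under submergence, -0.89 under drought, -0.78 under salt and 1.04 under heat, each with an SE of 0.08.

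**Figure D2:**
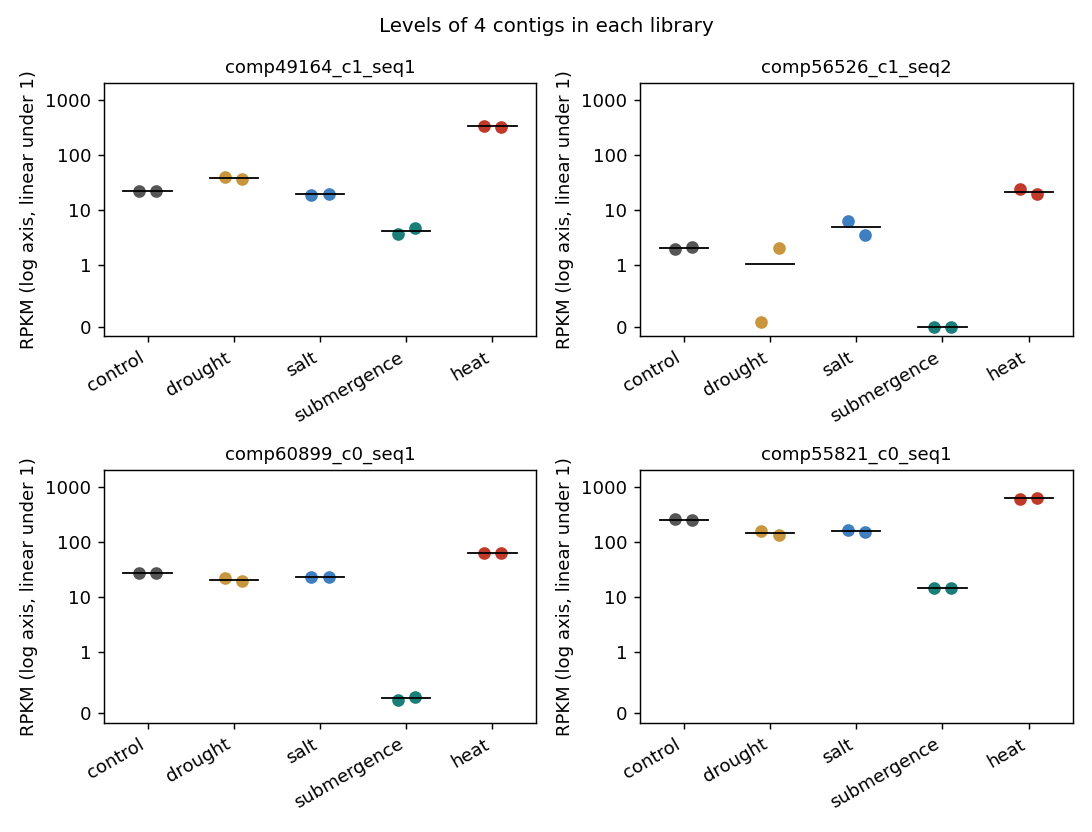
RPKM of the 4 contigs printed by identifier in each library, on an axis that is logarithmic above 1 and linear below it, with points for libraries and bars for the mean of 2. Heat points are the highest and submergence points the lowest in all 4 panels, and comp56526_c1_seq2 shows its split drought replicates, at 0.07 and 2.08 RPKM.

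The contig with the largest smaller-of-both change, described without its identifier like those that follow, was 12.7 and 14.0 RPKM in the control, 17.6 and 17.4 under drought, 12.7 and 13.6 under salt, 1.84 and 2.05 under submergence, and 88.1 and 92.7 under heat. Salt overlapped the control, and the other groups were apart from it. The heat mean was 6.77 times the control and the submergence mean 14.6% of it. The other contig of its subcomponent was a member as well, at 5.48 times the control under heat and 26.2% of it under submergence.

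The member with the highest control level had 328.09 and 328.55 RPKM there, 447.57 and 433.51 under drought, 348 and 343 under salt, 78.9 and 76.1 under submergence, and 831 and 851 under heat. Its groups did not overlap, with salt a little above the control as deposited and at a fitted change of -0.01 once scaled. The member with the lowest control level had 1.65 and 0.80 RPKM there, 0.94 and 0 under drought, 0 in both salt and both submergence libraries, and 4.57 and 5.31 under heat. It was above 1 RPKM in 1 control library and in the heat libraries.

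Because each group had 2 libraries, the rule was also applied to the replicate 1 libraries alone and to the replicate 2 libraries alone. It took 87 contigs in replicate 1 and 80 in replicate 2, and 49 in both. Those 49 were 56.3% of the first list and 61.3% of the second. Chosen on replicate 1, 85 of 87 contigs were above the control under heat and below it under submergence in replicate 2. The median heat change of the 87 was 1.32 in both replicates, and their median submergence change was -1.496 in replicate 1 and -1.557 in replicate 2. The heat rise reached 2-fold in the other replicate in 73 of the 87, and the submergence fall in 66. Chosen on replicate 2, 79 of 80 kept both directions in replicate 1, with median changes there of 1.33 under heat and -1.53 under submergence. There 68 of the 80 reached 2-fold under heat and 64 under submergence. The heat and submergence medians moved by less than 0.1 between the libraries used and those not used. The median drought change moved more for the 87, from 0.41 in replicate 1 to 0.26 in replicate 2, and was 0.26 in replicate 2 and 0.29 in replicate 1 for the 80. These values describe how alike the replicates were. They are no support for the set of 78, which was chosen on the means of both. Within the 78, the replicate difference had a median size of 0.07 on the log2 scale under heat, 0.10 in the control, 0.11 under salt, 0.12 under submergence and 0.13 under drought. The widest pair differed by 1.53, under drought.

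Drought, whose change the rule limited, took the members both ways. On the rule's scale 43 were above the control and 35 below it, between -0.94 and 0.996, with a median of 0.14. In the fit 32 were called higher and 19 lower, and 27 were not called. Over all contigs tested, 30.7% were called higher under drought and 30.2% lower. At 2-fold in the fit, 1 member was called lower and 0 higher, where 2160 and 1911 of all contigs tested were. A drought change of at least 0.5 was seen in 24 members and one of at most -0.5 in 9. Without the limit on drought the rule would have taken 169 contigs. Of those added, 86 were above the control by at least 1 under drought and 5 were below it by as much.

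Salt was the comparison left free by the rule, and in it more of the members were called lower than higher. The salt change had a median of -0.20 in the fit, against 0.00 over all contigs tested, with quartiles of -0.36 and 0.01 in the members and -0.16 and 0.16 over all contigs. Limma called 22 of the 78 lower and 3 higher at an adjusted p under 0.05, and 53 were not called. That is 28.2% lower and 3.85% higher, where all contigs tested gave 12.2% lower and 13.7% higher. At 2-fold, 1 member was called lower and 1 higher, where 86 and 366 of the 26884 contigs tested were. The 22 came from 19 subcomponents. On scaled values, both salt libraries were below both control libraries in 46 members and above them in 14, and the groups overlapped in 18. Over all 26884 contigs tested, the salt libraries were below in 31.4% and above in 30.7%, and the groups overlapped in 10195 contigs. The salt comparison uses the control libraries that the rule also used, so it is not fully independent of the choice.

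Among the contigs lower under salt, the largest fitted change, -1.20 with an SE of 0.30, was that of the contig with the lowest control level, whose salt libraries were both at 0 (adjusted p = 0.0200). The 3 members of the subcomponent of comp55821_c0_seq1 all fell, to 61.6%, 62.6% and 66.8% of the control level. comp60899_c0_seq1 fell to 84.8% of it (fitted change -0.31, adjusted p = 0.00943), while comp49164_c1_seq1 stood at 86.6% and was not called (adjusted p = 0.0621). Of the 3 members called higher, the largest fitted change was that of a contig with 11.5 and 10.1 RPKM in the control and 24.5 and 27.3 under salt. Its fitted change was 1.12 with an SE of 0.08 (adjusted p = 6.74e-05), and its drought libraries, at 17.8 and 15.9 RPKM, lay between the control and salt. Under heat it read 61.9 and 61.5 RPKM, and under submergence 3.04 and 2.78. The other 2 members called higher under salt had changes of 0.22 and 0.21.

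The salt counts moved with some settings. Without scaling, 17 members were called lower and 6 higher, where all contigs gave 7.71% and 19.4%. With the control and salt libraries alone, 16 members were called lower and 4 higher, where all contigs gave 7.63% and 8.4%. Without salt replicate 2 the median salt change of the members was -0.14 in place of -0.20. It was -0.17 without control replicate 1, -0.18 without control replicate 2 and -0.20 without either drought library. Single contigs moved across the threshold too. The call of comp60899_c0_seq1 was lost without control replicate 2 (adjusted p = 0.0538) or salt replicate 2 (adjusted p = 0.0566), over a range of 0.00455 to 0.0566 in all settings. comp49164_c1_seq1 was called without submergence replicate 1 (adjusted p = 0.0159) or replicate 2 (adjusted p = 0.0160) and with the control and salt libraries alone (adjusted p = 0.0233), and its adjusted p ranged up to 0.195. comp56526_c1_seq2 was called without drought replicate 1 (adjusted p = 0.0275) or replicate 2 (adjusted p = 0.0276), and its adjusted p ranged up to 0.575. comp55821_c0_seq1 kept its call in all 18 other settings of the limma fit.

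**Figure D3:**
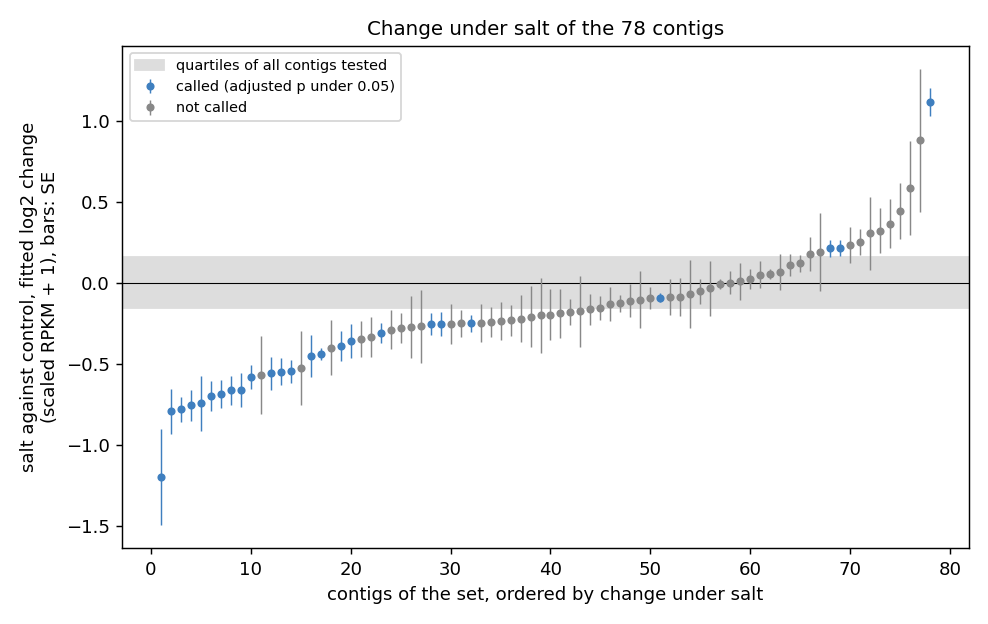
Fitted log2 change under salt of the 78 contigs in rank order, with the SE as bars, coloured by whether limma called them, and with the quartiles of all 26884 contigs tested as a grey band from -0.16 to 0.16. The 22 contigs called lower have changes between -1.20 and -0.09, and the 3 called higher between 0.21 and 1.12.

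The salt calls were set beside those of 3 other sets made from the same columns, with the same limits on drought and on the control level. The 1260 contigs with a submergence change of -1 or below and a heat change under 1 in size were called lower under salt in 29.2% and higher in 5.56%, with a median change of -0.14. The 1896 with a heat change of at least 1 and a submergence change under 1 in size, of which 1894 were tested, gave 6.44% lower and 11.3% higher, with a median of 0.03. The mirror set, 115 contigs with both thresholds reversed, gave 11.3% lower and 24.3% higher, with a median of 0.06. In these shares the 78 contigs were near the contigs with a submergence fall alone. The differences between the sets were not tested. Control levels also differed, with medians of 13.3 RPKM in the 78, 20.04 in the submergence set, 6.4 in the heat set and 7.91 in the mirror set.

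**Figure D4:**
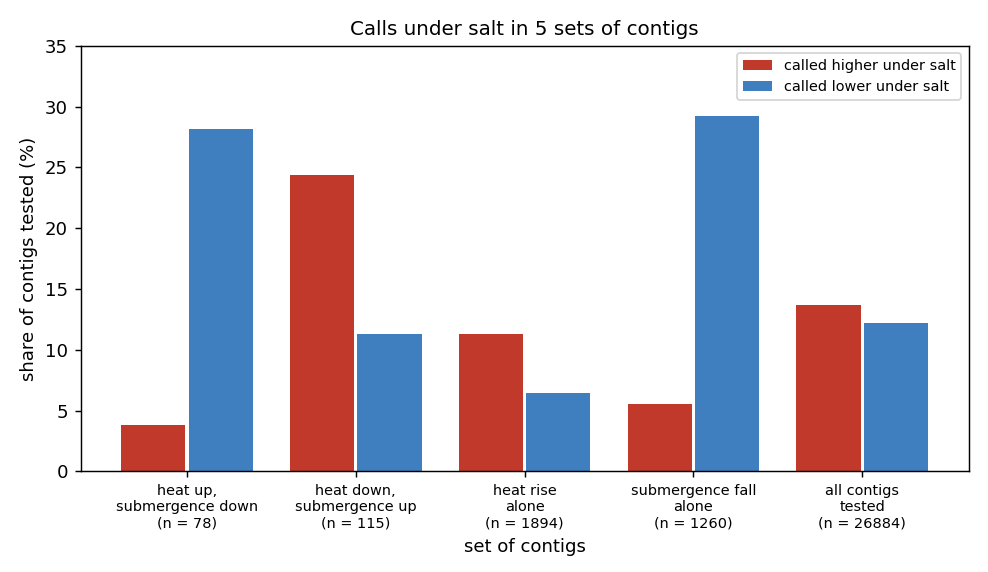
Share of contigs called higher and called lower under salt by limma, in percent of the contigs tested, for the 78 contigs, the 3 sets made from the same columns and all contigs. The bar for lower calls is the taller one in the 78 contigs (28.2%) and in the set with a submergence fall alone (29.2%), and the bar for higher calls in the other 3.

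Within the members' subcomponents, the contigs outside the set went several ways. The 78 came from 68 subcomponents. Other contigs of the same subcomponent were in the table for 48 of them (61.5%, against 49.2% of all contigs), and 30 stood alone. Of the 68, 2 subcomponents held 3 members and 6 held 2. The members' subcomponents held 119 more contigs, which failed the rule and so differ from the members in part by choice. Of these, 34 were above the control under heat and below it under submergence like the members, 37 were above it under both, 32 below it under both, and 12 the opposite way round. The remaining 4 had a change of 0 under heat, submergence or both. None of the 119 was 2-fold lower under heat and 2-fold higher under submergence. A level at least 2-fold above the control under submergence was seen in 26, in 8 subcomponents, and one at least 2-fold below it under heat in 19, in 6 subcomponents.

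**Figure D5:**
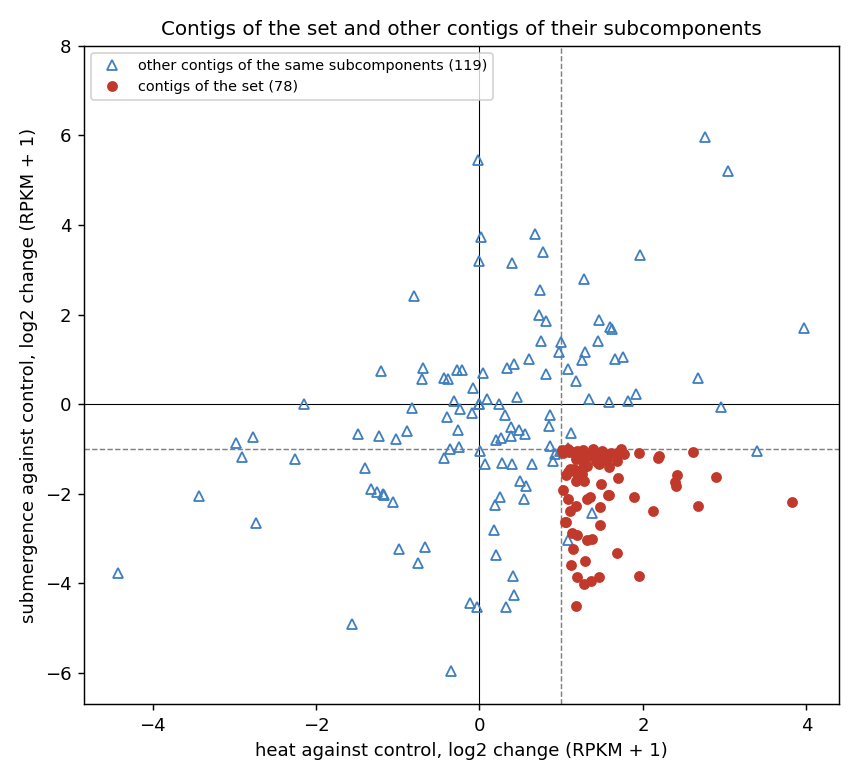
Log2 change of RPKM + 1 under heat (horizontal) and under submergence (vertical), both against the control, with dots for the 78 contigs, open triangles for the 119 other contigs of their subcomponents and dashed lines at the thresholds of the rule. The dots fill the lower right corner by choice, and the triangles lie in all quadrants, 3 of them in that corner because drought kept them out.

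When all contigs of a subcomponent were summed, 8 of the 38 subcomponents with 2 or more contigs still met the rule. The sum was above the control under heat and below it under submergence in 29 of the 38. It was below the control under heat in 3 and above it under submergence in 6. Over the whole table, 39 of 19459 subcomponents met the rule on their sums, 1 of which held no member.

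The subcomponent of comp60899_c0_seq1 holds 7 contigs, 3 of them members, and the members made up 48.1% of its RPKM in the control and 80.9% under heat. Another of the 7 had 35.8 and 38.1 RPKM in the control, 332 and 328 under drought, 34.5 and 34.6 under salt, 0.26 and 0.28 under submergence, and 12.1 and 11.6 under heat. Its drought libraries were above and its heat libraries below the control, while the 3 members had drought libraries below and, by the rule, heat libraries above it. Its fitted change was 3.05 under drought and -1.79 under heat, each with an SE of 0.05. Under submergence it lay below the control, as the members do by the rule. It was singled out after its values were seen, and nothing was tested here.

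In the subcomponent of comp55821_c0_seq1, with 5 contigs, the 3 members carried 58.4% of the RPKM in the control and 77.9% under heat. The sum of the 5 was 1065 RPKM in the control, 56.3 RPKM under submergence and 2395 RPKM under heat, and it missed the rule because its control level was over 500 RPKM. One of the other 2 had 429 and 413 RPKM in the control, 16.2 and 18.2 under submergence, and 526 and 531 under heat, with a fitted heat change of 0.09 (SE 0.07). The last of the 5 read 23.1 and 21.4 RPKM in the control and 0.18 and 0 under heat. Its salt libraries read 41.1 and 2.68 RPKM and its drought libraries 45.4 and 17.7, so its replicates disagreed.

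A further 2 subcomponents, picked after their values were seen, held contigs far higher under submergence beside a member that was lower. In one of them, with 8 contigs, the member read 127.64 and 136.95 RPKM in control leaves, 58.9 and 63.8 in submerged ones, and 524 and 508 in heated ones. The sum of the 8 was 434 RPKM in the control, 1511 under submergence and 1454 under heat. Another of its contigs read 3.54 and 3.66 RPKM in the control and 284.61 and 289.46 under submergence. In the other, with 7 contigs, the member was at 3.37 and 4.24 RPKM in the control, 8.44 and 11.3 under heat and 0 in both submergence libraries. Another of its contigs was at 0.03 and 0 RPKM in the control, 0 in both heat libraries, and 42.7 and 44.8 under submergence. How reads were shared between such contigs was not tested.

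Contigs lay close on both sides of the thresholds. Just inside the heat threshold were 2 members with changes of 1.01 and 1.02, and just outside it, with the other conditions met, 2 contigs with 0.998 and 0.997. For submergence, the 2 nearest inside had changes of -1.002 and -1.003 and the 2 nearest outside -0.977 and -0.971. Within 0.1 of the heat threshold there were 11 members and 24 contigs left out, and within 0.1 of the submergence threshold 16 members and 16 contigs left out. No contig missed the set through the limit on the control level alone.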

How the data were processed

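The authors deposited 1 table of RPKM values for all 10 libraries, as its column headers say. Its values carry decimals and were not treated as read counts. The submitters' processing notes name Bowtie2 (version 2.2.3), TopHat2 (version 2.0.12), HTSeq (version 0.6.1) and DESeq (version 1.18.0) without saying what each did. How contigs were assembled was not given in the sources used here, nor were read totals.

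The member rule was applied to the RPKM as deposited. For the tests, each library was divided by a factor from trimmed log ratios (30% of ratios and 5% of levels trimmed at each end), and a contig had to reach 1 RPKM in 2 or more libraries. Log2(scaled RPKM + 1) entered limma (version 3.58.1, R version 4.3.3) with the group as the only term, all libraries, 5 residual degrees of freedom and a variance trend. Fold changes on this scale understate those of low contigs. P-values were adjusted by Benjamini-Hochberg over the 26884 contigs tested in each comparison. The fit was tested on simulated data. Other steps ran in Python (version 3.11.15) with pandas (version 2.3.3), numpy (version 2.4.6) and matplotlib (version 3.10.9).

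The members and all choices were made with earlier results of these data known. Identifiers are printed for the 2 members with the largest heat change and the 2 others with the largest fall under submergence. Alternatives changed the scaling, pseudocount, filter, libraries, variance trend and limits of the rule, and added a replicate block. Sums over subcomponents were chosen after seeing the data.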

Additional observations from a re-analysis of the deposited data

How the results depend on the processing

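Of 18 other settings of the salt fit, the number of members called lower stayed within 1.5 times 22 in 17, and the number called higher within 1.5 times 3 in 13. Without scaling 6 were called higher, and the median salt change was -0.14 in place of -0.20; with a pseudocount of 0.1 RPKM it was -0.25. Leaving out each library in turn gave 13 to 24 members called lower, 1 to 6 called higher, a median from -0.21 to -0.14, and 4614 to 6993 of all contigs called, against 6970; the lowest of these was without control replicate 1. With the control and salt libraries alone, 4309 were called, along with 16 members lower and 4 higher. Where 1 library of a group was left out, the lone one was assumed to vary like the other groups. Leaving out 1 library of the rule gave 74 to 85 contigs that met it, with 65 to 76 of the 78 among them. A pseudocount of 0.1 RPKM gave 119 (68 of the 78), a change of at least 1.5 gave 13, no limit on drought 169, both replicates each 49, and summed subcomponents 39. The cause was not tested beyond what each setting changes by construction. The median salt change and the salt changes of the 4 contigs printed by identifier kept their sign in the settings run. Other members were not followed one by one, and some that were not called, among them the one with the highest control level, changed sign with scaling.

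The replicate numbers were not taken as pairs, since the replicate differences of the groups correlated across contigs by -0.05 to 0.12. With a replicate block, 20 members were called lower under salt and 4 higher, and 78 and 78 under heat and submergence as before. With 2 libraries a group and unknown read totals, levels under about 1 RPKM limit what can be said of the contigs near 0.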
